A study of Homo sapiens with 6 samples.

Results

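The long intergenic non-coding RNA (lincRNA) genes expressed in SKOV3 cells were taken as the genes that GENCODE release 29 types as lincRNA, by their Ensembl identifiers, whose level averaged 2 FPKM or more over all 6 libraries. FPKM is the number of fragments assigned to a gene, scaled by its exon length and by a denominator per library. There were 169 such genes among 7629 lincRNA genes and 58735 genes listed. SKOV3 is an established human ovarian carcinoma cell line. The TIPE2 group (3 libraries, numbered 1 to 3) consisted of SKOV3 cells carrying a lentivirus with human TIPE2 cDNA, and the Vector group (3 libraries) of SKOV3 cells given the empty vector. The puromycin selection is described in the labels for the TIPE2 cells, as a stable population rather than a named clone, and the promoter of the vector is not named. The labels name biological replicates and are silent on separate transductions, and p-values therefore cover only the spread among these 6 samples. The genes were chosen by their FPKM level, so levels are described without a test, whereas the difference between the groups was not used in the choice.

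LincRNAs are transcribed by RNA polymerase II from loci between protein-coding genes, are usually spliced and polyadenylated, and do not code for known proteins. Some act as RNA molecules, as scaffolds of nuclear bodies or as binding platforms for RNA-binding proteins. Others are known mainly as the precursors of the microRNAs or small nucleolar RNAs (snoRNAs) that lie in their exons or introns, and for many no role is known. In carcinoma cells, several are known for raised levels in tumours.

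The introduced gene followed the labels, with TNFAIP8L2, which encodes TIPE2, at 58.4, 47.2 and 48.8 FPKM in the TIPE2 libraries and at 0, 0.0476 and 0 FPKM in the Vector libraries. The libraries held between 15983317 and 18583473 assigned fragments. Of 10 markers fixed for an epithelial carcinoma line, 7 had a mean of at least 1 FPKM, whereas WT1, MUC16 and CDH1 lay under it. None of 5 leukocyte and none of 3 endothelial markers reached 1 FPKM, and 1 of 4 fibroblast markers did, COL1A1. The summed level of the fibroblast list was 0.910 to 4.31 FPKM in TIPE2 and 0.504 to 1.61 FPKM in Vector, and that of the endothelial list was 0.238 to 0.939 FPKM in TIPE2 and 0.103 to 0.210 FPKM in Vector, mostly PECAM1. The summed epithelial list was 1188 to 1439 FPKM in TIPE2 and 1367 to 1500.4 FPKM in Vector. Within it KRT18 was at 66.7 to 74.5 FPKM in TIPE2 against 92.8 to 134.8 FPKM in Vector, and KRT7 at 139 to 166 FPKM against 241 to 384 FPKM. The groups overlapped for the other markers of the list. Their highest library was a TIPE2 one for EPCAM, ERBB2, PAX8 and CDH1 and a Vector one for KRT8, KRT19, WT1 and MUC16. ERBB2 was at 529 to 792 FPKM in TIPE2 against 383 to 618 FPKM in Vector, and EPCAM at 5.55 to 12.5 FPKM against 5.88 to 8.08 FPKM. The part of these markers in the lincRNA results was not tested.

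All 169 lincRNA genes were above 0 in all 6 libraries. Their mean levels ran from 2.01 to 102 FPKM with a median of 3.75 FPKM, against a median of 8.93 FPKM for the 9553 protein-coding genes that met the same minimum. Most were near the lower end, with 109 genes from 2 to 5 FPKM, 49 from 5 to 20 FPKM and 11 at 20 FPKM or more. The top 3 held 19.7% of the summed mean level of the 169 genes and the top 10 held 40.7%. Systematic clone-based symbols, which carry no name from a described function, belonged to 84 of the 169. The lincRNA genes made up 0.482%, 0.471% and 0.459% of all FPKM in TIPE2 1, 2 and 3 (0.470% ± 0.0113, SD, n = 3) and 0.437%, 0.490% and 0.504% in Vector 1, 2 and 3 (0.477% ± 0.0353, SD, n = 3). The TIPE2 values lay inside the range of the Vector values.

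Just above the minimum were AL359513.1 at 2.01 FPKM, PSMB8-AS1 at 2.01 FPKM and SRP14-AS1 at 2.02 FPKM. Just under it were LINC00601 at 1.99 FPKM, AC099568.2 at 1.98 FPKM and LINC02377 at 1.97 FPKM. The border between expressed and not expressed genes therefore separated neighbours that differed by less than their spread between libraries. Of the exonic bases of PSMB8-AS1, 56.8% are shared, most with PSMB8 on the opposite strand, at a mean of 28.9 FPKM. Reads of these 2 genes were not separated.

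The most abundant lincRNA was LINC02167 (chromosome 16, 35743268 to 35756515, plus strand, GRCh38), for which no role is given here. It stood at 103, 101 and 92.7 FPKM in TIPE2 1, 2 and 3 and at 123, 104 and 89.2 FPKM in Vector 1, 2 and 3. Next was AC008736.1 (chromosome 19, 32687089 to 32691750, minus strand), whose start lies within 1000 bases of that of NUDT19, a gene for a hydrolase of coenzyme A, on the opposite strand. AC008736.1 was at 98.5, 112 and 85.5 FPKM in TIPE2 and at 116, 65.6 and 79.3 FPKM in Vector. Both groups of libraries overlapped for LINC02167 and for AC008736.1, and the order of these 2 genes was not the same in every library. After these came NORAD with a mean of 72.2 FPKM, AC005392.2 with 64.2 FPKM, LINC02522 with 54.3 FPKM and MALAT1 with 48.4 FPKM. SNHG19 (35.2 FPKM), AC105460.1 (34.4 FPKM), LINC02474 (25.8 FPKM) and AC015922.2 (22.0 FPKM) completed the 10 highest.

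**Figure D1:**
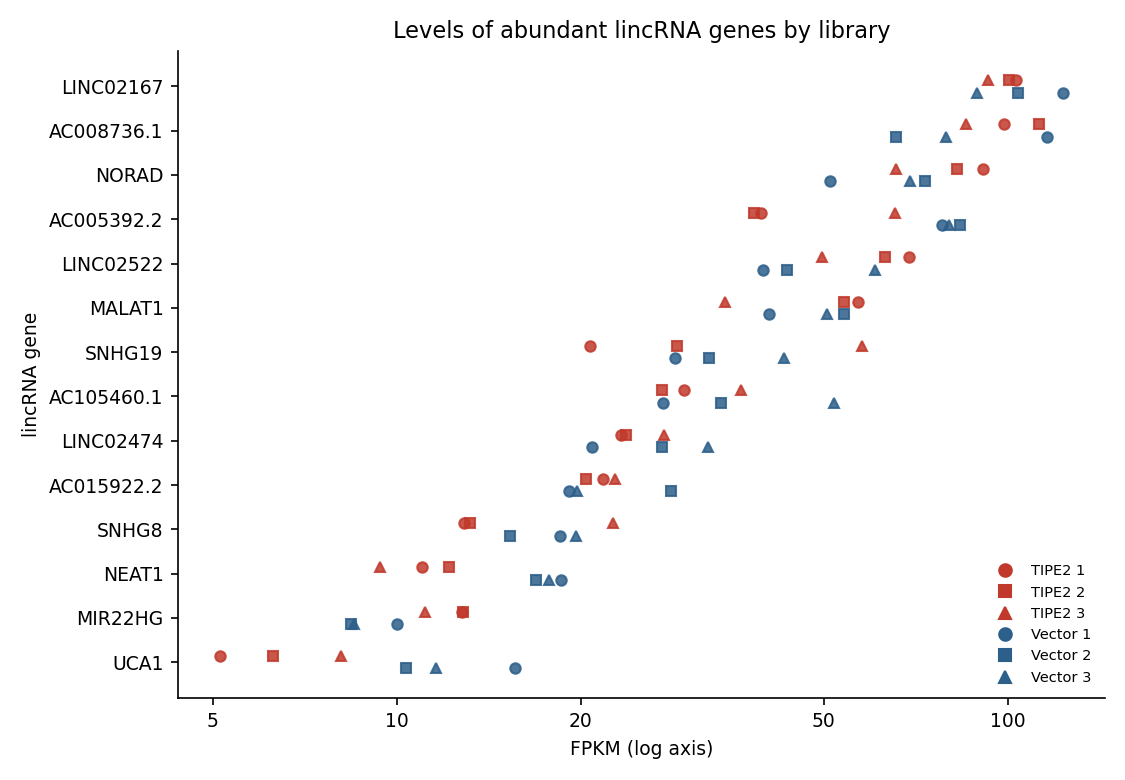
Levels of the 10 most abundant lincRNA genes and of NEAT1, UCA1, MIR22HG and SNHG8 in each library, in FPKM on a log axis; each point is 1 library, red for TIPE2 and blue for Vector. The libraries of both groups interleave for most genes, whereas NEAT1, UCA1 and AC005392.2 had all TIPE2 points left of all Vector points and MIR22HG had them right.

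NORAD is an abundant cytoplasmic RNA known for a short UGUA-containing element that is repeated along it and bound by RNA-binding proteins. The gene has 1 exon of 5339 bases (chromosome 20, 36045622 to 36050960, minus strand). Its transcript held 15 copies of the element TGTANATA on the sense strand, or 2.81 per 1000 bases, against 0.121 per 1000 bases over the longest transcripts of the 169 genes and 0.1004 over those of all 7629 lincRNA genes. At least 5 copies were found in 2 of the 169 genes, NORAD and NEAT1 (6 copies in a transcript of 22743 bases), and in 12 of the 7629 (0.157%). Of the elements of NORAD, 6 are printed 5′ to 3′ with flanking bases from the GENCODE 29 transcript on GRCh38, the element in capitals, to show the repeated unit and its variable base.
NORAD element 1: ggaaggcctgTGTATATAatatgaaaaagc
NORAD element 2: ctcactactgTGTATATAgttgacaatgct
NORAD element 3: aatcacatttTGTAAATAcctttttgttac
NORAD element 5: gtgtatatagTGTACATAaaggacagacga
NORAD element 8: aataacacttTGTAAATAgcttttaaaaac
NORAD element 11: aaccctactgTGTATATAgcggacaaactt

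NORAD was at 91.1, 82.7 and 65.6 FPKM in TIPE2 1, 2 and 3 (79.8 ± 13.0, SD, n = 3) and at 51.1, 73.4 and 69.3 FPKM in Vector 1, 2 and 3 (64.6 ± 11.9, SD, n = 3). The groups overlapped, since TIPE2 3 lay under Vector 2 and Vector 3. The difference in log2(FPKM + 1), TIPE2 minus Vector, with its standard error (SE), was 0.30 (SE 0.19; limma, adjusted p = 0.834), and it was 0.15 without Vector 1 and 0.44 without TIPE2 3.

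MALAT1 and NEAT1 lie next to each other on chromosome 11, on the plus strand and 52148 bases apart, and both are retained in the nucleus. MALAT1 (65497688 to 65506516) is known from nuclear speckles, where splicing factors are stored, and NEAT1 (65422774 to 65445540) is the scaffold on which paraspeckle proteins assemble. Both are known for a 3′ end that is not an ordinary poly(A) tail but a triple helix of U-rich and A-rich tracts. The longest stretches shared by the last 500 bases of their longest transcripts were 16 and 11 bases, the first ending in a U-rich and the second made of an A-rich tract, and the next was 10 bases. The first followed within 60 bases by the second was found in the longest transcripts of 2 of 7629 lincRNA genes, which are the pair the search was built from. Both stretches are printed in capitals, from GENCODE 29 transcripts on GRCh38, because they show the feature that the pair shares.
MALAT1 3-prime end: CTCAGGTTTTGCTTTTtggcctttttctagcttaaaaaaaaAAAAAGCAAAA
NEAT1 3-prime end: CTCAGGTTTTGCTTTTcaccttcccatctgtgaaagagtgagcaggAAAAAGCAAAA

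NEAT1 was at 10.99, 12.2 and 9.38 FPKM in TIPE2 1, 2 and 3 (10.8 ± 1.40, SD, n = 3) and at 18.6, 16.9 and 17.8 FPKM in Vector 1, 2 and 3 (17.8 ± 0.843, SD, n = 3). Every TIPE2 library lay below every Vector library. The difference was -0.67 with an SE of 0.12, with an unadjusted p of 0.000534, and it did not pass the test over all genes (limma, adjusted p = 0.335). Leaving out each library in turn gave differences from -0.75 to -0.58 with adjusted p from 0.165 to 0.867. These values rest on 3563 to 6861 fragments per library, and the SD within groups was 0.13 against 0.018 from counting alone. FPKM over the merged exons pools the short and the long form of NEAT1, of which only the long form builds paraspeckles, and the forms were not separated here. In bulk RNA, fewer cells with a transcript and less of it per cell cannot be told apart.

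MALAT1 was at 57.0, 54.0 and 34.4 FPKM in TIPE2 and at 40.6, 54.0 and 50.6 FPKM in Vector. The means were 48.5 ± 12.3 and 48.4 ± 6.95 FPKM (SD, n = 3), the lowest library was TIPE2 3, and the difference was -0.02 (SE 0.21; limma, adjusted p = 0.980). The sign of that small difference turned to 0.06 with quantile normalization. Of 11 genes for paraspeckle proteins, 0 passed the test and 0 had an unadjusted p under 0.05, with a median difference of -0.07. NONO, a core paraspeckle protein that binds NEAT1, differed by 0.20. Of 6 genes for speckle proteins, 0 passed and 0 had an unadjusted p under 0.05, with a range from -0.19 for SRSF3 to 0.27 for SRRM2. Of 14 tested genes for RNA decay factors, 0 passed and 0 had an unadjusted p under 0.05, with a median difference of 0.05. The share of all genes tested with an unadjusted p under 0.05 was 5.99%. Also a nuclear RNA among the 169 genes is XIST, which is counted in the totals and whose levels are not given.

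The snoRNA hosts among the 169 genes were SNHG19, SNHG8 and SNHG15, of 9 listed hosts that GENCODE types as lincRNA. Their spliced RNA is known mostly as a by-product of the snoRNAs in their introns. Of the annotated exonic bases of SNHG8, 14.2% are shared with other genes, most with SNORA24 on the same strand. Of those of SNHG15, 3.65% are shared, most with SNORA9 on the same strand. Reads of host and snoRNA were not separated. SNHG19 was at 20.7, 28.8 and 57.7 FPKM in TIPE2 1, 2 and 3 and at 28.5, 32.5 and 43.1 FPKM in Vector 1, 2 and 3. TIPE2 held both the lowest and the highest of these, and the difference was -0.07 (SE 0.35; limma, adjusted p = 0.965). SNHG8 was at 12.9, 13.2 and 22.6 FPKM in TIPE2 and at 18.5, 15.3 and 19.6 FPKM in Vector, again with TIPE2 3 the highest of the 6, a difference of -0.17 (SE 0.21; limma, adjusted p = 0.873). Without TIPE2 1 that difference was -0.033 and without TIPE2 3 it was -0.42. SNHG15 was at 2.21, 2.37 and 2.68 FPKM in TIPE2 (2.42 ± 0.238, SD, n = 3) and at 3.85, 3.18 and 3.41 FPKM in Vector (3.48 ± 0.341, SD, n = 3). Its groups did not overlap, and the difference of -0.39 with an SE of 0.11 did not pass the test (limma, adjusted p = 0.670). Of the 3 hosts, SNHG15 was the one with an unadjusted p under 0.05, beside 5.99% of all genes tested.

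MicroRNA genes lay on the same strand inside 9 of the 169 genes, with 16 microRNA genes in all, 15 of which were matched by symbol to the RefSeq table of GRCh38.p14. A host transcript is a precursor, and FPKM of its exons does not measure the mature microRNA. One mature strand of each main microRNA is printed for 6 of the 7 genes on the microRNA host list, with the seed, bases 2 to 8, in capitals, to show which family each host carries. A seed is shared within 1 host by let-7a with let-7b in MIRLET7BHG, by miR-30a with miR-30c in LINC00472 and by miR-221 with miR-222 in MIR222HG.
hsa-miR-22-3p: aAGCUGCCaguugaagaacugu
hsa-miR-210-3p: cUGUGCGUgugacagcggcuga
hsa-let-7a-5p: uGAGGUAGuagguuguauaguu
hsa-let-7b-5p: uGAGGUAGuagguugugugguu
hsa-miR-30a-5p: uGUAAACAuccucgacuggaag
hsa-miR-30c-5p: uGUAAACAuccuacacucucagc
hsa-miR-193b-3p: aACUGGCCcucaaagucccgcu
hsa-miR-365a-3p: uAAUGCCCcuaaaaauccuuau
hsa-miR-221-3p: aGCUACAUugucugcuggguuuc
hsa-miR-222-3p: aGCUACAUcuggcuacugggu

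Of these hosts, MIR22HG and LINC00472 had each TIPE2 value above each Vector value, as did 6.18% of all genes tested. MIR22HG (chromosome 17, 1711493 to 1717174, minus strand), which carries miR-22 in an exon, was at 12.8, 12.8 and 11.1 FPKM in TIPE2 (12.2 ± 0.984, SD, n = 3) and at 10.0, 8.42 and 8.53 FPKM in Vector (8.99 ± 0.900, SD, n = 3). The difference was 0.41 with an SE of 0.11 and did not pass the test (limma, adjusted p = 0.662). LINC00472 (chromosome 6, 71344344 to 71420769, minus strand), with miR-30a and miR-30c in introns, was at 4.11, 3.82 and 3.01 FPKM in TIPE2 (3.65 ± 0.570, SD, n = 3) and at 1.80, 2.93 and 2.77 FPKM in Vector (2.50 ± 0.612, SD, n = 3). Its difference was 0.42 (SE 0.16; limma, adjusted p = 0.802), the lowest TIPE2 library stood close to the highest Vector library, and the difference was 0.26 without Vector 1.

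In the other 5 microRNA hosts the groups overlapped. MIR210HG, host of the hypoxia-induced miR-210, was at 6.66, 8.68 and 6.74 FPKM in TIPE2 and at 13.3, 8.85 and 5.17 FPKM in Vector, so that Vector held both extremes. MIR5689HG was at 4.48, 3.66 and 2.58 FPKM in TIPE2 and at 2.65, 1.44 and 4.48 FPKM in Vector. MIRLET7BHG ranged from 2.63 to 3.75 FPKM over the 6 libraries, MIR193BHG from 2.38 to 3.51 FPKM and MIR222HG from 1.55 to 2.91 FPKM. The differences of the 5 genes ran from -0.20 for MIR210HG to 0.30 for MIR5689HG, and adjusted p from 0.848 to 0.989 (limma). The value of MIR5689HG rested on single libraries, since it was 0.0099 without Vector 2 and 0.60 without Vector 3.

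Between TIPE2 and Vector cells no lincRNA gene passed the test. The 8 transcripts with the smallest p were AC025259.3, NEAT1, UCA1, AP005233.2 and AC005392.2, lower in TIPE2, and CASC9, LINC02432 and LINC01705, higher in TIPE2. The lowest adjusted p was 0.274, for AC025259.3. Of all 12538 genes tested, 3 passed at an adjusted p under 0.05 (0.0239%), or 0.016% higher and 0.00798% lower, and 0 of the 169 lincRNA genes did, with 0 also under each other setting tried. At an unadjusted p under 0.05 there were 25 of the 169 (14.8%), against 5.99% of all genes tested. Of the 25, 9 were higher and 16 lower, where the shares of all genes tested were 3.01% and 2.97%. For protein-coding genes averaging 2 FPKM or more the share was 5.05%. Among the 123 lincRNA genes that share no exonic base with another gene, 16 (13.0%) had an unadjusted p under 0.05. The 25 genes became 45 (26.6%) without TIPE2 3, where the share of all genes was 12.5%, and between 18 and 29 without any 1 of the other 5 libraries. With each gene's own variance, unshared with other genes, the count was 17 (10.1%), against 5.77% of all genes.

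The groups did not overlap for 24 of the 169 genes (14.2%), against 11.5% of all genes tested. These were 12 higher and 12 lower in TIPE2, where the shares of all genes were 6.18% and 5.31%. The median difference over the 169 genes was -0.05, beside -0.01 over all genes. A difference below 0 was found in 101 of 169 (59.8%), beside 51.1% of all genes tested. For protein-coding genes averaging 2 FPKM or more that share was 51.8%. The median size of the difference was 0.20 for the lincRNA genes and 0.12 for all genes, and their median standard errors were 0.18 and 0.14. A difference of at least 1 in size was reached by 1 of the 169 (0.592%), AC025259.3, beside 62 of all 12538 genes (0.494%). Both medians, of the size of the difference and of the standard error, were larger for the lincRNA genes than for all genes. The relation between them was not tested.

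**Figure D2:**
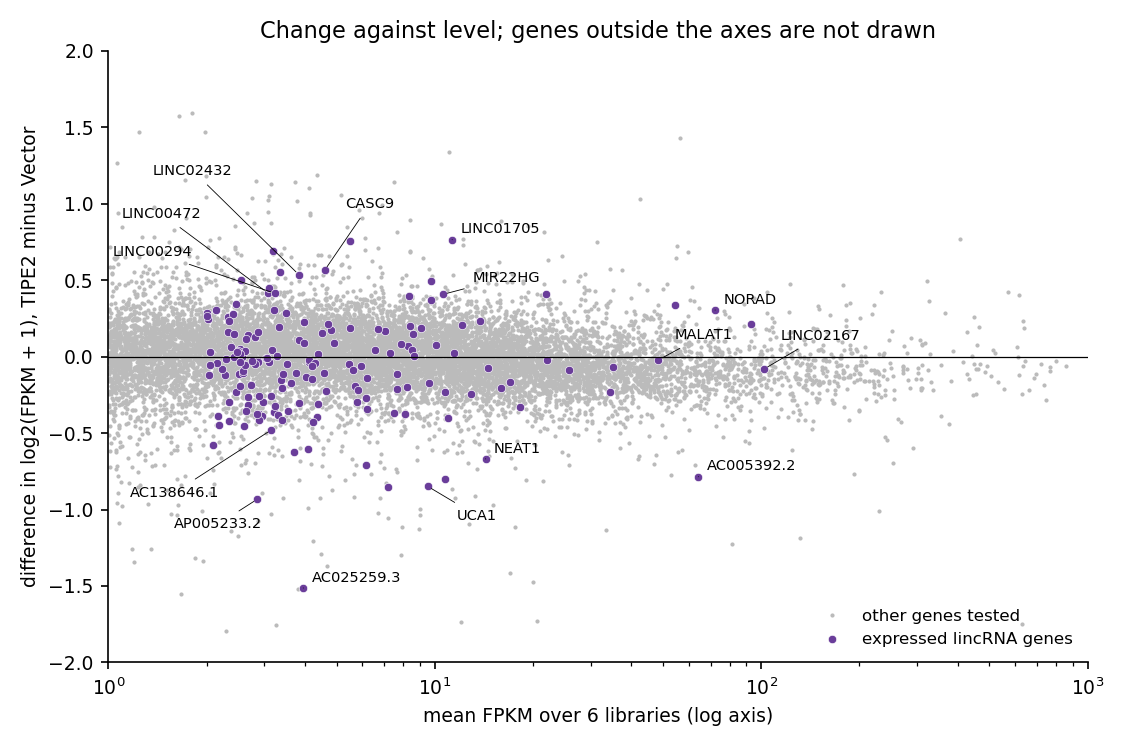
Difference in log2(FPKM + 1), TIPE2 minus Vector, against mean FPKM over the 6 libraries on a log axis, for all genes tested (grey) and the 169 expressed lincRNA genes (purple). The lincRNA genes spread on both sides of 0 at every level, AC025259.3 has the lowest difference among them and LINC01705 the highest.

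AC025259.3 (chromosome 12, 52058459 to 52059503, minus strand) was at 2.28, 1.88 and 0.721 FPKM in TIPE2 1, 2 and 3 (1.62 ± 0.807, SD, n = 3) and at 7.33, 6.44 and 5.08 FPKM in Vector 1, 2 and 3 (6.28 ± 1.13, SD, n = 3). The difference was -1.51 (SE 0.24) and an unadjusted p of 0.000262 (limma, adjusted p = 0.274). It was the lincRNA gene with the largest difference, and every TIPE2 library lay below every Vector library. Of its exonic bases, 82.4% are shared, most with NR4A1 on the opposite strand, an immediate-early gene for an orphan nuclear receptor. NR4A1 itself was at 17.6, 19.4 and 8.68 FPKM in TIPE2 and at 40.9, 23.0 and 18.7 FPKM in Vector, a difference of -0.81 (limma, adjusted p = 0.831). Whether strand was used in counting is not given in the sources used here, so reads of the lincRNA gene and of NR4A1 cannot be told apart.

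UCA1 (chromosome 19, 15828206 to 15836326, plus strand), first described in bladder carcinoma, was lower in TIPE2. It was at 5.14, 6.27 and 8.12 FPKM in TIPE2 (6.51 ± 1.502, SD, n = 3) and at 15.6, 10.3 and 11.6 FPKM in Vector (12.5 ± 2.77, SD, n = 3), with no overlap. The difference was -0.85 (SE 0.19; limma, adjusted p = 0.448), and leaving out each library in turn gave -0.998 to -0.69. Of the exonic bases of UCA1, 13.6% are shared, most with LINC01764 on the opposite strand.

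AC005392.2 (chromosome 19, 43329295 to 43331430, minus strand), a spliced transcript of 301 exonic bases with no role given here, was among the 10 most abundant lincRNAs. Its TIPE2 libraries were at 39.4, 38.4 and 65.5 FPKM (47.8 ± 15.4, SD, n = 3) and its Vector libraries at 78.2, 83.5 and 80.1 FPKM (80.6 ± 2.67, SD, n = 3). The Vector libraries were close together, and TIPE2 3 stood between them and the other two TIPE2 libraries. The difference of -0.79 had a standard error of 0.21 (limma, adjusted p = 0.659), and its adjusted p was between 0.0648 and 0.9998 when a library was left out.

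AP005233.2 (chromosome 11, 69371463 to 69372512, plus strand) lies 3737 bases from MYEOV, a gene known for overexpression in myeloma, on the same strand. AP005233.2 was at 1.96, 1.54 and 1.29 FPKM in TIPE2 and at 2.55, 6.03 and 3.78 FPKM in Vector, from 8 to 40 fragments per library. The groups did not overlap, and the difference was -0.93 (SE 0.24; limma, adjusted p = 0.642). MYEOV, at a mean of 13.3 FPKM, differed by -0.91 (SE 0.19; limma, adjusted p = 0.382). Reads that run on from one gene into the other were not separated. AC138646.1 on chromosome 8 had no overlap either, at 1.97, 2.89 and 2.56 FPKM in TIPE2 against 3.70, 3.28 and 4.54 FPKM in Vector (difference -0.48, limma, adjusted p = 0.736).

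LINC01705 (chromosome 1, 222041705 to 222064763, minus strand) had the highest difference among the genes without overlap, although it did not pass the test. It was at 18.9, 15.0 and 10.0 FPKM in TIPE2 (14.6 ± 4.44, SD, n = 3) and at 6.98, 8.88 and 8.06 FPKM in Vector (7.97 ± 0.953, SD, n = 3). The TIPE2 libraries were spread, with TIPE2 3 close to Vector 2, and the difference was 0.76 (SE 0.21; limma, adjusted p = 0.662). LINC02474, the next lincRNA gene of the set 56741 bases away on the other strand, differed by -0.09.

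CASC9 (chromosome 8, minus strand), a transcript described in carcinoma of the oesophagus, was at 6.01, 5.90 and 5.13 FPKM in TIPE2 (5.68 ± 0.480, SD, n = 3) and at 3.61, 3.92 and 3.03 FPKM in Vector (3.52 ± 0.451, SD, n = 3). The groups were well apart and the spread was close to counting error, with an SD within groups of 0.13 on the log2(FPKM + 1) scale against 0.11 from counting alone. The difference was 0.57 (SE 0.12) and an unadjusted p of 0.00153 (limma, adjusted p = 0.382). LINC02432 (chromosome 4, 141319450 to 141332618, minus strand) was at 4.91, 4.59 and 4.64 FPKM in TIPE2 and at 2.62, 2.86 and 3.39 FPKM in Vector, a difference of 0.53 (SE 0.11; limma, adjusted p = 0.382). LINC00294 overlaps the gene CSTF3 on the opposite strand. It was at 4.76, 3.67 and 3.16 FPKM in TIPE2 against 2.47, 2.73 and 2.65 FPKM in Vector (difference 0.41, limma, adjusted p = 0.757). Of the exonic bases of LINC00294, 17.4% are shared, most with the pseudogene PIGCP1 on the opposite strand. CSTF3, a subunit of the cleavage stimulation factor of mRNA 3′ ends, differed by 0.0041.

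**Figure D3:**
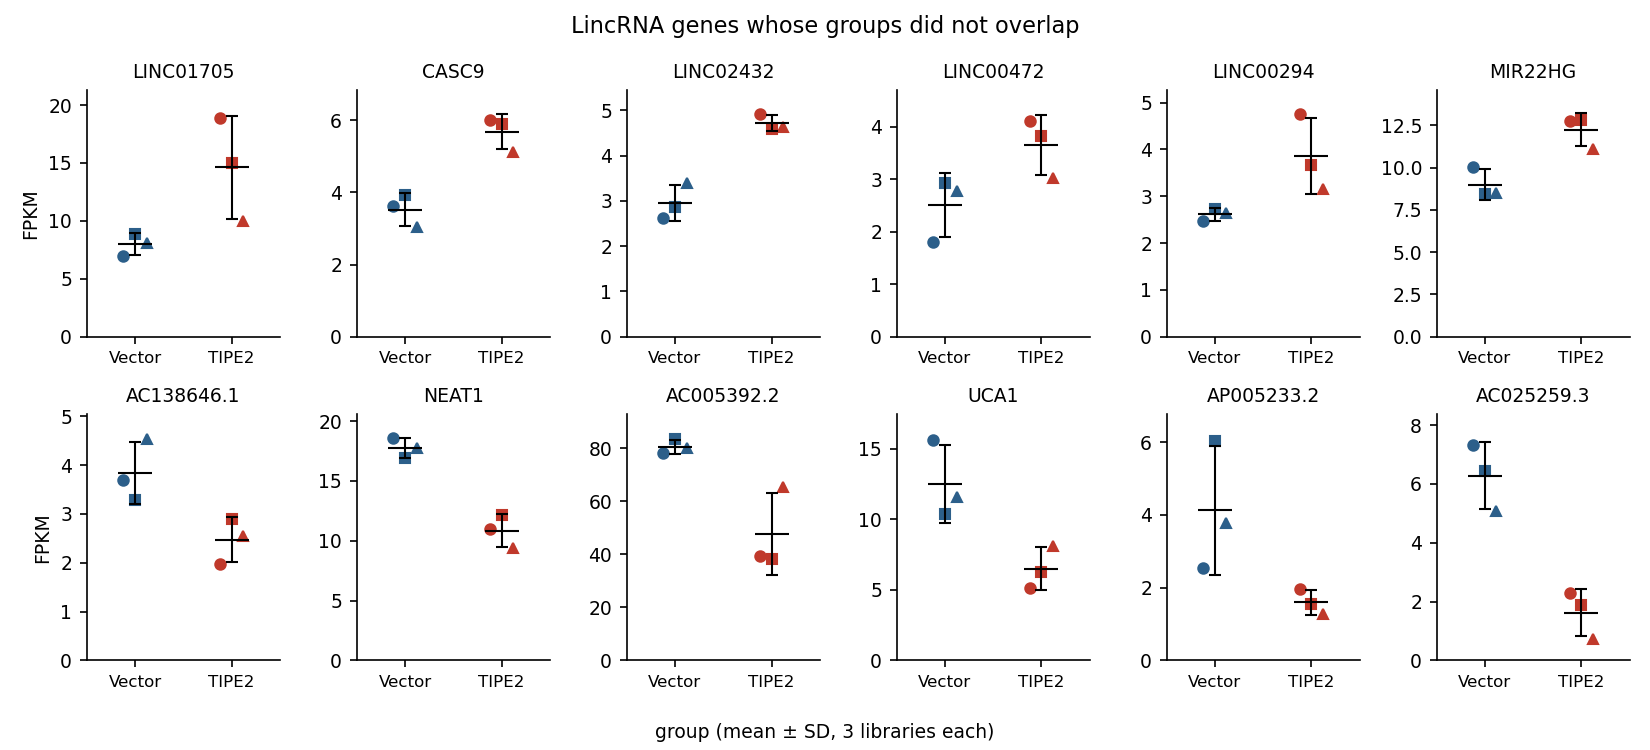
FPKM by group for the 6 lincRNA genes with the highest and the 6 with the lowest differences among those whose groups did not overlap; each symbol is 1 library (circle 1, square 2, triangle 3) and the black marks are the mean ± SD of 3 libraries. Every vertical axis starts at 0, and TIPE2 3 lies nearest to the Vector libraries for LINC01705, UCA1 and AC005392.2.

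The role lists of RNAs were small after the minimum of 2 FPKM. Of the carcinoma-associated list, 5 of 18 lincRNA genes were expressed, UCA1, LINC01116, CRNDE, CASC9 and LINC00665, and 2 had an unadjusted p under 0.05, UCA1 lower and CASC9 higher, beside 5.99% of all genes tested and 14.8% of the 169 lincRNA genes. CRNDE, named for its level in colorectal neoplasia, was at 5.58, 6.07 and 6.10 FPKM in TIPE2 and at 5.87, 4.78 and 4.66 FPKM in Vector. LINC01116 was at 7.47, 9.08 and 10.7 FPKM in TIPE2 and at 9.51, 7.43 and 7.31 FPKM in Vector, and LINC00665 ranged from 3.996 to 4.86 FPKM over all libraries. The groups overlapped for these 3 genes. Of the p53-responsive list, NEAT1 and TP53TG1 were expressed, and TP53TG1 was at 1.37, 3.52 and 2.81 FPKM in TIPE2 against 3.96, 2.14 and 1.38 FPKM in Vector, with overlap. Of the list for inflammation and NF-kB, 1 of 5 lincRNA genes was expressed, MIR22HG, and of the hypoxia list 2 of 3, NEAT1 and MIR210HG.

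Libraries of 1 group differed more for lincRNA genes than for protein-coding genes of the same level. From 2 to 5 FPKM the median SD within groups on the log2(FPKM + 1) scale was 0.251 for 109 lincRNA genes and 0.160 for 2745 protein-coding genes. From 5 to 20 FPKM it was 0.286 against 0.160, and from 20 to 110 FPKM 0.303 against 0.186. The SD that counting alone would give was 0.148 against 0.0597 in the lowest range, since the lincRNA genes had a median of 55 fragments per library and the protein-coding genes 341. In the highest range it was 0.0647 against 0.0294, so counting was a smaller share of the spread there. Levels of the lincRNA genes in 2 libraries of the same group correlated across genes with r from 0.860 to 0.959, against 0.969 to 0.989 over all genes tested, and genes are not independent replicates. Libraries of different groups correlated with r from 0.852 to 0.928 over the lincRNA genes. TIPE2 3 correlated with TIPE2 1 at 0.860 and with TIPE2 2 at 0.899, and with Vector 1, 2 and 3 at 0.888, 0.911 and 0.928. Over all genes tested it likewise correlated most with Vector 3. The values there were 0.972 and 0.977 with TIPE2 1 and 2, and 0.973, 0.979 and 0.985 with Vector 1, 2 and 3. A mean under 50 fragments per library was found for 53 of the 169 genes.

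The lincRNA genes with the largest spread were led by LINC00621, with an SD within groups of 0.74. LINC00621 was at 11.01, 7.44 and 3.16 FPKM in TIPE2 1, 2 and 3 and at 1.67, 6.05 and 3.64 FPKM in Vector 1, 2 and 3. Of its exonic bases, 55.4% are shared, most with a pseudogene on the opposite strand, NUS1P2. AP001505.1 was at 2.94, 7.49 and 14.5 FPKM in TIPE2 and at 15.0, 10.5 and 13.8 FPKM in Vector, so TIPE2 1 stood far below the rest. For AC073046.1 a single library was low, Vector 1 at 0.487 FPKM from 3 fragments, whereas the other 5 libraries were between 3.60 and 4.39 FPKM. AC015912.3, beside the start of TRIM25, was at 3.44, 2.30 and 10.3 FPKM in TIPE2 and at 10.5, 9.51 and 7.03 FPKM in Vector. XIST was also among the 5 genes with the largest spread, and its levels are not given. The genes with the smallest spread were SRP14-AS1 (0.078), AL390728.6 (0.084) and EPB41L4A-AS1 (0.092), each close to its counting SD of 0.095, 0.13 and 0.077. Of the exonic bases of EPB41L4A-AS1, 49.6% are shared, most with EPB41L4A on the opposite strand, at a mean of 1.74 FPKM. SRP14-AS1 was at 2.56, 2.16 and 2.10 FPKM in TIPE2 and at 1.82, 1.71 and 1.76 FPKM in Vector, and AL390728.6 was at 4.14, 4.73 and 4.28 FPKM against 3.81, 3.29 and 3.68 FPKM. For both genes each TIPE2 library lay above each Vector library, and neither passed the test (limma, adjusted p = 0.834 for each).

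**Figure D4:**
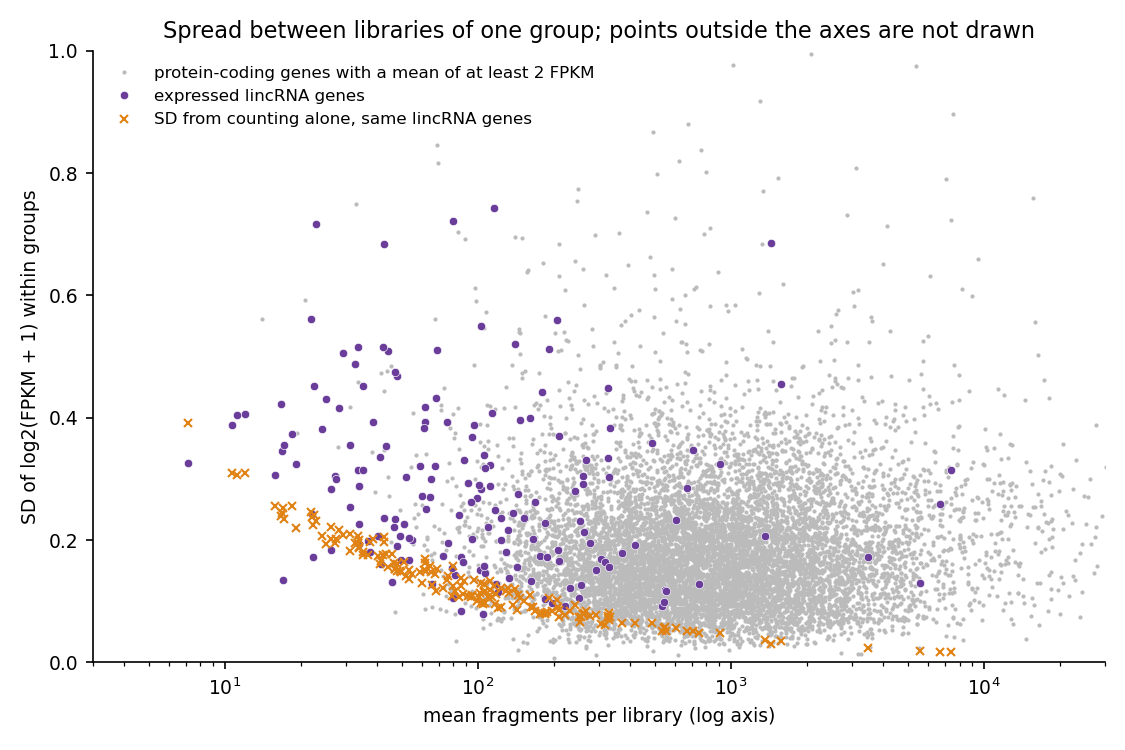
SD of log2(FPKM + 1) within groups against mean fragments per library on a log axis, for protein-coding genes (grey), the expressed lincRNA genes (purple) and the SD that counting alone gives for the same lincRNA genes (orange crosses). Most lincRNA genes lie to the left of the protein-coding genes and above their own counting SD.

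In structure the expressed lincRNA genes were short. The median merged exon length was 1064 bases (163 to 25264), against 1009 bases for 2929 lincRNA genes above 0 and under 2 FPKM and 4979 bases for protein-coding genes averaging 2 FPKM or more. A single exon was annotated in 40 of 169 (23.7%), against 24.8% of the lincRNA genes under the minimum and 1.59% of the protein-coding genes. They lay on 23 chromosomes, with the highest counts on chromosomes 17 and 19, 14 genes each. The nearest protein-coding gene was at a median of 3430 bases from the expressed genes and of 10810 bases from those under the minimum. Exonic bases were shared with another gene in 46 of the 169, and over 25% of the exonic bases in 11.

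Many of the expressed genes started beside a protein-coding gene. Starts within 1000 bases of a protein-coding gene's start, on the opposite strand, were found for 47 of the 169 (27.8%), against 347 of 2929 (11.8%) of the lincRNA genes under the minimum. Of these 47, 45 had a partner that was tested. The lincRNA member was the lower of the pair in 32 of 45, at a median ratio of 0.371 on the FPKM scale. AC008736.1 at 92.9 FPKM stood above NUDT19 at 24.9 FPKM, whereas SRP14-AS1 at 2.02 FPKM stood far under SRP14, a subunit of the signal recognition particle, at 208.5 FPKM. The differences between the groups had the same sign in 23 of the 45 pairs, and across pairs, which are not independent, their correlation was 0.27. Among the 36 pairs without shared exonic bases 16 had the same sign.

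LINC01547 (chromosome 21, 44932814 to 44939913, minus strand) starts 97 bases from FAM207A, a gene for a ribosome biogenesis factor, on the opposite strand. It was at 3.59, 3.42 and 3.84 FPKM in TIPE2 (3.62 ± 0.208, SD, n = 3) and at 5.39, 4.50 and 5.32 FPKM in Vector (5.07 ± 0.495, SD, n = 3), with no overlap. The difference was -0.39 (SE 0.11; limma, adjusted p = 0.662), and FAM207A differed by -0.67 (adjusted p = 0.802). LINC01547 and MIR210HG are shown as examples of promoters, and both were chosen after their values were seen. RefSeq promoters, from 250 bases before to 50 bases after the start, were matched by symbol for 55 of the 169 genes, of which 48 start within 1000 bases of the GENCODE start. The motif GGGCGG, the core of the GC box bound by Sp1 factors, was found on either strand in 30 of 55 (54.5%) and in 44.6% of all 27305 promoters of this length. The motif ACGTG, the core of hypoxia response elements, which overlaps the E-box CACGTG, was found in 21 of 55 (38.2%) and in 21.6% of all promoters. CACGTG was found in 6 of 55 (10.9%) and in 7.43% of all promoters. The median GC content was 60.7% against 58.3%. A match describes letters only. Capitals mark GGGCGG or its complement in LINC01547 (GRCh38.p14, chr21:44939864-44940163, minus strand) and ACGTG in MIR210HG (GRCh38.p14, chr11:568408-568707, minus strand).
LINC01547: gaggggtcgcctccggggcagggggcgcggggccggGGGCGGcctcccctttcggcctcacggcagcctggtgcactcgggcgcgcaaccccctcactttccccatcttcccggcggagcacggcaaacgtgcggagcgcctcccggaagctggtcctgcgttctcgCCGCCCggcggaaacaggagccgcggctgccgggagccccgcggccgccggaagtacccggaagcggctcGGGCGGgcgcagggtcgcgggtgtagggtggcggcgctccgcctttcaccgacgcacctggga
MIR210HG: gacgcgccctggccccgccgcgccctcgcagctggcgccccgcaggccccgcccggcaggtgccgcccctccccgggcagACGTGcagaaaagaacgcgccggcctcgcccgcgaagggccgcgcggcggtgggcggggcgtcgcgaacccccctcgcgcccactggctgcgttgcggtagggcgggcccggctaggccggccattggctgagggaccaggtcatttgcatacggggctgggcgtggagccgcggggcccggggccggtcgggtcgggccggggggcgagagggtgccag

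Close neighbours within the set did not all differ alike. MIR5689HG and LINC02522 lie 17719 bases apart on opposite strands of chromosome 6. The nearest protein-coding gene of MIR5689HG is TFAP2A, a transcription factor gene of epithelial and neural crest cells, and that of LINC02522 is GCNT2. LINC02522 was at 68.9, 63.0 and 49.6 FPKM in TIPE2 and at 39.8, 43.6 and 60.7 FPKM in Vector. The differences of the pair were 0.30 and 0.34, and TFAP2A differed by -0.02 and GCNT2 by 0.12 (SE 0.11; limma, adjusted p = 0.848). AC015922.2 and AC015922.3 on chromosome 17, 811 bases apart on opposite strands, differed by -0.02 and -0.40. NEAT1 and MALAT1 differed by -0.67 and -0.02.

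Libraries deviated with gene length. Among the 30 lincRNA genes under 500 bases of merged exon, the median deviation of log2(FPKM + 1) from each gene's overall mean was -0.17 in TIPE2 1, -0.15 in TIPE2 2 and 0.11 in TIPE2 3. It was -0.02 in Vector 1, 0.15 in Vector 2 and 0.12 in Vector 3. The median difference between groups was -0.13 in this class, with 21 of 30 genes below 0. It was -0.05 in the 50 genes from 500 to 1000 bases, with 27 below 0. In the 50 genes from 1000 to 2500 bases it was -0.06, with 30 below 0. The median deviation there was -0.16 in TIPE2 1 and 0.10 in Vector 1. In the 39 genes over 2500 bases the median difference was -0.01, with 23 below 0. In the 96 protein-coding genes under 1000 bases the median deviation was -0.25 in TIPE2 1 and 0.39 in Vector 1. Their median difference was -0.13, with 69 of 96 below 0. In the 6088 protein-coding genes over 4000 bases the median difference was 0.03, with 2534 below 0. TIPE2 1 was thus low and Vector 1 high for short protein-coding genes, while short lincRNA genes were low in TIPE2 1 and TIPE2 2. The part of length in the lincRNA differences was not tested. Short genes include AC005392.2 with 301 and AP005233.2 with 372 exonic bases, whereas NEAT1 has 22767, UCA1 4152, LINC02432 3750 and MIR22HG 2986.

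**Figure D5:**
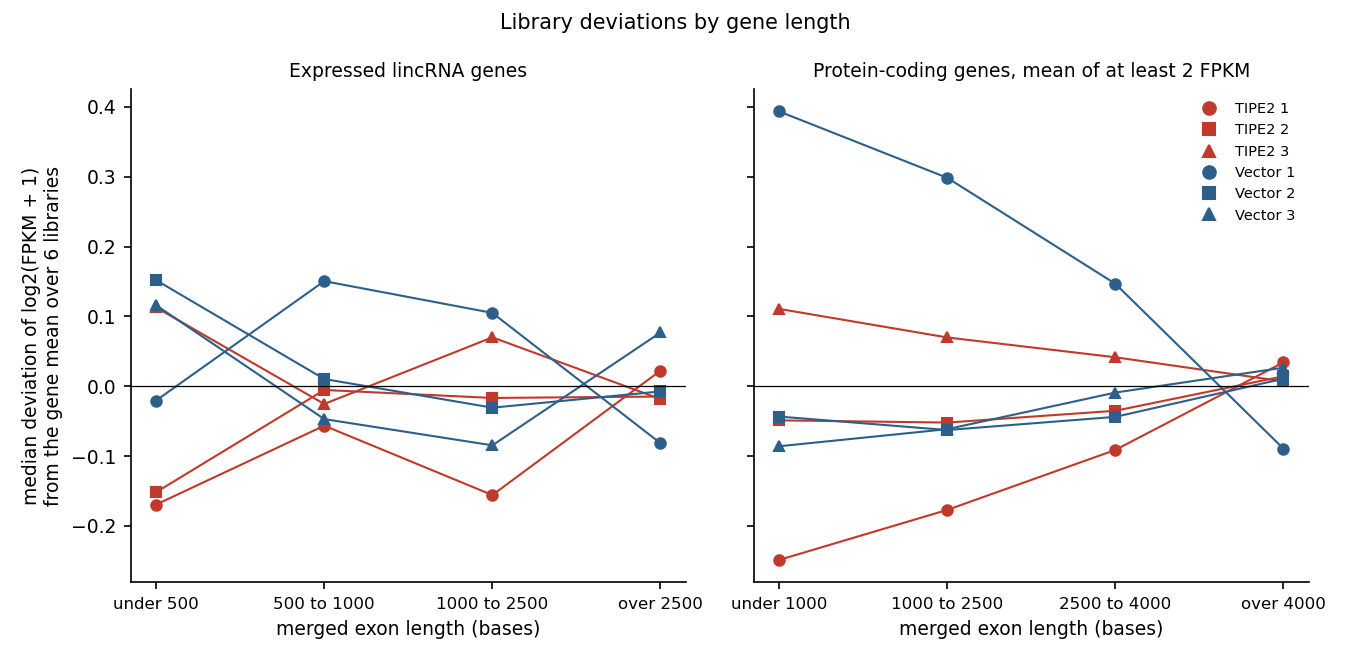
Median deviation of log2(FPKM + 1) from the gene mean over 6 libraries, by class of merged exon length in bases, for the expressed lincRNA genes (left) and protein-coding genes averaging 2 FPKM or more (right); each line is 1 library. Vector 1 rises to 0.39 and TIPE2 1 falls to -0.25 for protein-coding genes under 1000 bases, and the lines of the lincRNA genes stay between -0.17 and 0.15.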

How the data were processed

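RNA was sequenced from 3 TIPE2 and 3 Vector cultures of SKOV3, grouped by the sample titles. The authors deposited FPKM per gene, 1 table per library, per the file headers. CASAVA 1.7, Bowtie and a mouse build, mm8, are named per the submitters' processing notes. All 58735 identifiers are human and were matched to GENCODE 29 on GRCh38, whose coordinates are used; for the counter, its strand setting and poly(A) selection nothing is given in the sources used here. FPKM times merged exon length and a denominator per library gave whole fragments for 100% of values within 0.01, which served for depth and counting error only. The denominator was not equal to the assigned fragments. It ran from 96.3% of them in Vector 1 to 103.4% in TIPE2 1. Fragments were read without molecular identifiers, so counting SDs cover counting error only.

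Differences were tested with limma 3.58.1 in R 4.3.3 (trend, robust) on log2(FPKM + 1) for the 12538 genes averaging 1 FPKM or more, Benjamini-Hochberg adjusted over all of them, passing at 0.05; the scale understates changes of low genes. All 169 lincRNA genes were tested. The steps were tried on simulated data for TIPE2 against Vector, with 12538 genes and noise independent between genes. Differences of 1 and of 2 in log2(FPKM + 1) were recovered in 69.8% and 95% of cases, with 9 false calls on average. The SDs were shuffled between all genes and many genes were changed at once. The shares therefore do not apply to the lincRNA genes, whose spread was larger than that of protein-coding genes of the same level. The lincRNA genes, role lists and tests were chosen with earlier results of these data known. Named are the 10 most abundant, the 6 highest and 6 lowest differences without overlap, the 5 largest and 3 smallest SDs within groups, 3 genes either side of the minimum, and the role list members; other genes, motifs, length classes, pairs of neighbours and printed sequences were chosen after values were seen. Alternatives were a block for the replicate number, leaving out single libraries, quantile normalization, no filter, a minimum of 2 FPKM, no trend or robust settings, a pseudocount of 0.1, other minimum levels and no shared exonic bases. A fit without sharing of variance between genes was added after seeing the data. Sequences come from GENCODE 29 transcripts on GRCh38 and RefSeq tables of GRCh38.p14, read with Python 3.11.15 and pandas 2.3.3. Values of some genes on the lists, and the result of 1 list, are left out of the text.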

Additional observations from a re-analysis of the deposited data

How the results depend on the processing

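No lincRNA gene passed the test under any setting, and the median difference stayed between -0.07 and -0.03 when each library was left out. The count at an unadjusted p under 0.05 ran from 18 to 45 over the fits without 1 library, the latter without TIPE2 3. It was 28 with the replicate number as a block, 22 with no filter and 24 with quantile normalization. It was 41 of 309 lincRNA genes averaging 1 FPKM or more, 10 of 60 at 5 FPKM or more and 16 of 123 without shared exonic bases, sets of other sizes by construction. The lincRNA share of summed FPKM in those sets was 0.540%, 0.355% and 0.333% in TIPE2 and 0.544%, 0.356% and 0.331% in Vector. Same-numbered libraries deviated together with r of -0.23, 0.15 and 0.19, so the numbers were not taken as pairs.

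Other than leaving out libraries, quantile normalization and the pseudocount were the settings that could move the difference of a gene, and 81 of 84 such differences of the 42 named genes kept their sign. With quantile normalization LINC02167 turned to 0.014, MALAT1 to 0.061 and AC015922.2 to 0.018; the cause was not tested. Without 1 library, 27 named genes moved by over 1.5 times or changed sign in at least 1 fit. Of the 13 named genes with an unadjusted p under 0.05, 1 did so, LINC00472. A small p in these same libraries already requires a difference that is large against its spread, so this count does not measure robustness. Of the 27, 13 changed sign. Their ranges were -0.12 to 0.15 for AC015922.2, -0.027 to 0.90 for AC073046.1, -0.43 to 0.018 for AC105460.1, -0.090 to 0.025 for LINC00665 and -0.19 to 0.036 for LINC02167. They were -0.25 to 0.051 for LINC02474, -0.15 to 0.20 for MALAT1, -0.14 to 0.070 for MIR193BHG, -0.51 to 0.093 for MIR210HG and -0.22 to 0.088 for MIR222HG. They were -0.12 to 0.062 for MIRLET7BHG, -0.47 to 0.25 for SNHG19 and -0.20 to 0.34 for TP53TG1. Depth limits the 53 genes with a mean under 50 fragments per library.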
